A study of Homo sapiens with 13 samples.

Results

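The genes described here are 10 members of the mitochondrial and death receptor routes into apoptosis: BCL2L1 and MCL1 (anti-apoptotic BCL2 proteins), BAX (a pore-forming effector), BID, BAD, BBC3, PMAIP1 and BCL2L11 (BH3-only proteins), and FADD and APAF1 (adaptors that start caspase activation). They were chosen by name, and all 10 were present, on 14 of the 12007 probes and as 10 of the 8380 genes in the normalized table. The samples were 13 libraries of mRNA recovered on streptavidin beads from HEK293T cells (a human embryonic kidney line) 24 h after the cells received 200 pmol of a miRNA duplex carrying biotin, and hybridized to Illumina HT-12 bead arrays. The groups were miR-17-5p (3 libraries), its isomiR miR-17-5p-iso (3), miR-27a (3), miR-23b (2) and miR-182-iso (2). All were pull-downs of a synthetic duplex in 1 cell line. Mock-transfected controls and input RNA were not analysed here, so each pull-down was set against the pull-downs of unrelated miRNAs.

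BCL2 proteins decide whether the outer mitochondrial membrane stays intact. BCL2L1 (which encodes BCL-XL) and MCL1 hold BAX in check, BH3-only proteins bind and neutralize these guardians or activate BAX directly, and permeabilized mitochondria release cytochrome c, around which APAF1 assembles the apoptosome. FADD links ligand-bound death receptors to the initiator caspases, and BID, once cleaved, carries that signal to mitochondria. A miRNA guides Argonaute to mRNAs, mainly through its seed (bases 2 to 8), so that an mRNA enriched on the beads is a candidate for having been bound. Pairing to the central part of the miRNA is, the paper proposes, also common, and an isomiR shares that part with its canonical partner. BCL2L11, which encodes BIM, is a known target of miR-17-5p, and FADD has been described as a target of miR-27a. The paper proposes that targets whose mRNA is degraded are less likely to be found enriched, which was not tested here.

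The miRNA strands of the transfected duplexes are shown because the labels set the groups apart by them. They are written 5′ to 3′ with the seed in capitals.
miR-17-5p: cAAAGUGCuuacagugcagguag
miR-17-5p-iso: uCAAAGUGcuuacagugcaggua
miR-27a: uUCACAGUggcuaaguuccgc
miR-23b: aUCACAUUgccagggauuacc
miR-182-iso: uGGCAAUGguagaacucacacu
The miR-17-5p strand was identical to hsa-miR-17-5p of RefSeq (assembly GRCh38.p14, chr13:91350618-91350640, plus strand). The isomiR had 1 base more at its 5′ end and 1 fewer at its 3′ end, and shared a run of 22 nt with the canonical strand. This moves every base of the seed by 1 position. The miR-27a strand was identical to hsa-miR-27a-3p (chr19:13836447-13836467, minus strand). The miR-23b strand lacked 2 bases at the 3′ end of hsa-miR-23b-3p (chr9:95085265-95085287, plus strand). The miR-182-iso strand began 2 bases inside hsa-miR-182-5p (chr7:129770447-129770470, minus strand). The seeds of miR-27a and miR-23b began with the same 5 bases, and no other pair of seeds shared its first base. Transcripts of the 10 genes were not searched for sites.

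The values were normalized signals whose scale approaches log2 at high signal and is compressed near background, which understates the differences of dim probes. The library medians lay between 8.53 and 8.60, and precision is limited by how many arrays there were. Of 7 genes that the HEK293T line is known to transcribe, 6 were present (8 probes), and the log2 of their summed signal was 14.00 to 14.25 in the miR-182-iso libraries, against 13.42 to 13.97 in the other 4 groups. Of 16 markers of other cell types only COL1A1 was present, near the lower end of the scale (7.48 to 7.59). The miR-182-iso libraries stood apart. They joined the others last in clustering, and their correlation with another library went down to r = 0.80 across probes. Called differences in the other 4 pull-downs, and the counts and correlations, are therefore given with and without them. A higher signal in a pull-down can mean more capture or more of the mRNA in the cells, and these cannot be told apart here.

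The question put to each gene was whether its recovery differed with the miRNA on the beads. In an F test over the 5 pull-downs (limma, Benjamini-Hochberg over all probes, called at an adjusted p under 0.05), 7 of the 14 member probes differed, from 6 genes: BCL2L1, BAX, BID, BBC3, PMAIP1 (both probes) and FADD. Among all probes 42.2% passed the same test. The group means of a member probe spanned a median of 0.62 on the log2 scale, against 0.64 over all probes, and the spread within groups had a median SD of 0.17, against 0.21. Of the 6 member probes dimmer than the median probe 1 passed, and of the 8 brighter ones 6 passed, against 29.2% of all dimmer and 55.1% of all brighter probes. With the miR-182-iso libraries left out, BCL2L1 (adjusted p = 0.0043), BID (adjusted p = 0.0124) and FADD (adjusted p = 0.00835) still differed among the other 4 pull-downs, and 21.1% of all probes did.

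**Figure D1:**
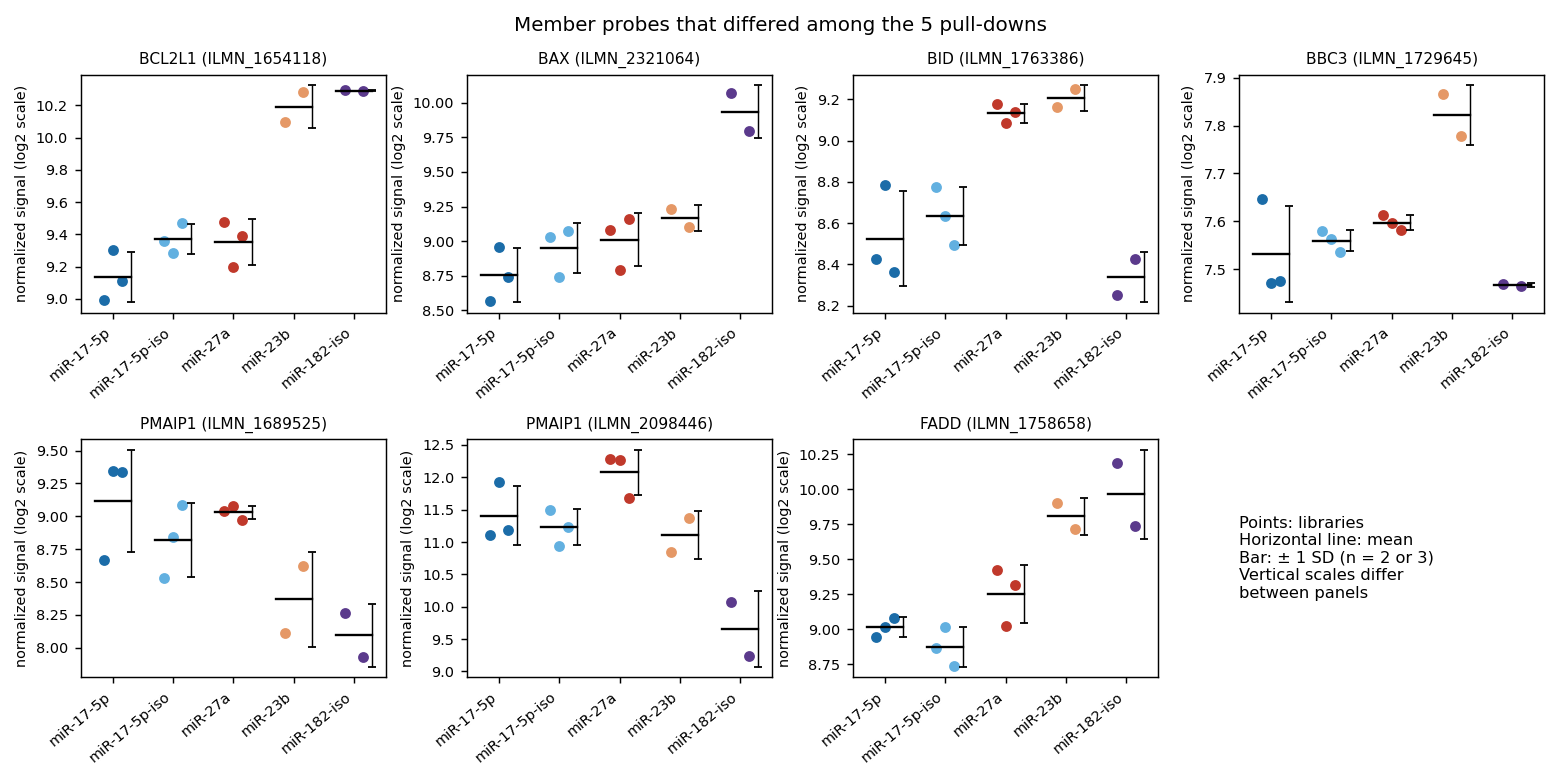
Normalized signal (log2 scale, vertical axis, a separate range in each panel) of the 7 member probes that passed the F test, for the libraries of each pull-down (points), with the group mean (line) and SD (bar, n = 2 or 3). BCL2L1 and FADD sat higher in the miR-23b and miR-182-iso libraries than in the others, BID was high in the miR-27a and miR-23b libraries, and the brighter PMAIP1 probe was lowest in the miR-182-iso libraries (9.25 and 10.07).

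BCL2L1 (probe ILMN_1654118), whose product blocks BAX, fell into 2 levels. Its signal was 8.99, 9.30 and 9.11 in the miR-17-5p libraries, 9.36, 9.28 and 9.47 with miR-17-5p-iso, 9.47, 9.20 and 9.39 with miR-27a, 10.10 and 10.28 with miR-23b, and 10.29 and 10.29 with miR-182-iso. All 4 libraries of the last 2 groups lay above all 9 libraries of the first 3. This split was picked from the values, and the share of all probes that show it was not counted. In order of the group means (miR-182-iso, miR-23b, miR-17-5p-iso, miR-27a, miR-17-5p), the only neighbours that differed beyond their spread were miR-23b and miR-17-5p-iso, by 0.82 (SE 0.12, adjusted p = 0.00442, limma pair contrast).

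Against the unrelated pull-downs, BCL2L1 changed in all 5 comparisons. It averaged 9.14 ± 0.15 (SD, n = 3) with miR-17-5p, and 9.94 was the mean of the unrelated pull-downs, so the log2 difference was -0.81 (SE 0.09, adjusted p = 0.00104). With miR-17-5p-iso the difference was -0.57 (SE 0.09, adjusted p = 0.00417), and with miR-27a it was -0.56 (SE 0.09, adjusted p = 0.00236). In the other direction, BCL2L1 was higher with miR-23b by 0.56 (SE 0.10, adjusted p = 0.0139), and with miR-182-iso by 0.69 (SE 0.10, adjusted p = 0.00109), where both libraries lay above all 11 others. The 5 comparisons share libraries, so each direction is set in part by the others. Without the miR-182-iso libraries BCL2L1 stayed lower with miR-17-5p (-0.64, adjusted p = 0.00535), miR-17-5p-iso (-0.40, adjusted p = 0.0372) and miR-27a (-0.37, adjusted p = 0.0389), and higher with miR-23b (0.89, adjusted p = 0.0053). The miR-23b difference did not pass without replicate 1 (0.65, adjusted p = 0.107) or replicate 2 (0.46, adjusted p = 0.143) of miR-23b.

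MCL1, the other anti-apoptotic member and a protein of short half-life, did not pass the F test on either probe (adjusted p = 0.887 and 0.144). Probe ILMN_1756806 was dim in all 13 libraries, with values of 7.47 to 7.72. Probe ILMN_1803988 lay between 9.34 and 10.12, with group means of 9.86 ± 0.17 in miR-17-5p, 9.70 ± 0.21 in miR-17-5p-iso, 9.88 ± 0.35 in miR-27a, 9.36 ± 0.03 in miR-23b and 9.46 ± 0.16 in miR-182-iso (SD, n = 3, 3, 3, 2 and 2). The largest of its differences from the unrelated pull-downs were -0.34 with miR-23b (95% interval -0.72 to 0.03) and 0.34 with miR-27a (0.02 to 0.67, adjusted p = 0.103). Both probes are annotated to the same transcript.

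BAX, which oligomerizes into the membrane pore, had 1 probe that passed the F test and 1 that did not. Probe ILMN_2321064 read 8.57, 8.96 and 8.74 with miR-17-5p, 9.03, 8.74 and 9.08 with miR-17-5p-iso, 9.08, 8.79 and 9.16 with miR-27a, 9.23 and 9.10 with miR-23b, and 10.07 and 9.80 with miR-182-iso. Both miR-182-iso libraries lay above the other 11, and the miR-23b libraries lay above those of both miR-17-5p strands and overlapped with miR-27a. Its mean was 9.93 ± 0.19 (SD, n = 2) with miR-182-iso, against 9.01 for the unrelated ones, a log2 difference of 0.92 (SE 0.14, adjusted p = 0.00113). In the order of means, miR-182-iso differed from the next group, miR-23b, by 0.77 (SE 0.18, adjusted p = 0.0124), and no other neighbours differed.

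With miR-17-5p, this BAX probe was lower than in the unrelated pull-downs (log2 difference -0.61, SE 0.12, adjusted p = 0.013). That call was lost without the miR-182-iso libraries (-0.33, adjusted p = 0.11) and without miR-17-5p replicate 1 (adjusted p = 0.0533) or 3 (adjusted p = 0.0597). The second BAX probe, ILMN_1683300, is annotated to a different transcript. It ranged from 7.77 to 8.77 and did not pass the F test (adjusted p = 0.14). Its differences were -0.29 with miR-17-5p and 0.38 with miR-182-iso (95% interval -0.05 to 0.81, adjusted p = 0.163), of the same sign as those of the first probe. The 2 probes had the same sign in 3 of the 5 comparisons. They had opposite signs with miR-17-5p-iso (0.01, against -0.42 for the first probe) and with miR-23b (0.20, against -0.10).

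BID, the BH3-only protein that caspase-8 cleaves, showed another arrangement. Probe ILMN_1763386 read 8.43, 8.79 and 8.36 with miR-17-5p, 8.78, 8.64 and 8.49 with miR-17-5p-iso, 9.18, 9.09 and 9.14 with miR-27a, 9.16 and 9.25 with miR-23b, and 8.25 and 8.43 with miR-182-iso. All 5 libraries of miR-27a and miR-23b lay above the other 8. This split, too, was picked from the values, without a count over all probes. The step between miR-27a and the next group, miR-17-5p-iso, was 0.50 (SE 0.12, adjusted p = 0.0184), and miR-23b and miR-27a differed by 0.07 (SE 0.13, adjusted p = 0.809).

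Relative to the unrelated pull-downs, BID was higher with miR-27a by 0.42 (SE 0.10, adjusted p = 0.0114) and with miR-23b by 0.52 (SE 0.11, adjusted p = 0.0242). It was lower with miR-182-iso (log2 difference -0.63, SE 0.11, adjusted p = 0.00272) and with miR-17-5p (log2 difference -0.37, SE 0.10, adjusted p = 0.0475), and with miR-17-5p-iso the difference of -0.26 did not pass (adjusted p = 0.157). Leaving out the miR-182-iso libraries ended the calls for miR-27a (0.24, adjusted p = 0.162) and miR-23b (0.35, adjusted p = 0.121), and each of these is then the other's comparator in part. It took the differences to -0.64 with miR-17-5p (adjusted p = 0.00674) and -0.54 with miR-17-5p-iso (adjusted p = 0.0188). The BID call for miR-17-5p was lost in 18 of 21 alternatives, among them 12 of the 13 that leave out 1 library, the replicate block (adjusted p = 0.0698), all 4 other pull-downs as comparator (0.096), quantile normalization (0.0739), median centring (0.0801) and the filter on dim probes (0.1). The call for miR-23b was lost without either of its replicates. The second BID probe, ILMN_2372413, annotated to a different transcript, stayed between 7.57 and 7.99 and did not pass the F test (adjusted p = 0.904).

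PMAIP1, which encodes NOXA, a BH3-only protein that binds MCL1, spanned the widest range of the members. On probe ILMN_2098446 the signal was 11.10, 11.93 and 11.18 with miR-17-5p, 11.50, 10.94 and 11.24 with miR-17-5p-iso, 12.29, 12.26 and 11.68 with miR-27a, 10.84 and 11.37 with miR-23b, and 10.07 and 9.25 with miR-182-iso. The miR-182-iso libraries lay below all others, and the miR-27a libraries overlapped with miR-17-5p. Its mean was 9.66 ± 0.58 (SD, n = 2) with miR-182-iso against 11.50 for the unrelated ones, a log2 difference of -1.84 (SE 0.28, adjusted p = 0.00137). With miR-27a it averaged 12.08 ± 0.35 (SD, n = 3) against 10.69, a difference of 1.38 (SE 0.25, adjusted p = 0.0037), which was 0.87 without the miR-182-iso libraries (adjusted p = 0.0428). The 2 ends of the range, miR-27a and miR-182-iso, differed by 2.42 (SE 0.33, adjusted p = 0.000618).

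The second PMAIP1 probe, ILMN_1689525, is annotated to the same transcript and was dimmer. It read 8.67, 9.35 and 9.33 with miR-17-5p, 8.53, 8.84 and 9.09 with miR-17-5p-iso, 9.04, 9.07 and 8.97 with miR-27a, 8.11 and 8.62 with miR-23b, and 8.26 and 7.93 with miR-182-iso. The lowest 3 libraries were both of miR-182-iso and 1 of miR-23b, the other miR-23b library overlapped with miR-17-5p-iso, and miR-17-5p rather than miR-27a had the highest mean. The probe was higher with miR-27a by 0.55 (SE 0.18, adjusted p = 0.0405) and lower with miR-182-iso (log2 difference -0.69, SE 0.21, adjusted p = 0.0266), the same directions as the brighter probe. Its miR-27a call was lost against all 4 other pull-downs (0.43, adjusted p = 0.0873), without the miR-182-iso libraries (0.36, adjusted p = 0.233) and without any 1 miR-27a library, miR-17-5p-iso replicate 2, miR-23b replicate 1 or miR-182-iso replicate 2. Its miR-182-iso call was lost without either miR-182-iso library or miR-23b replicate 2. No neighbours in its order of means differed beyond their spread.

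BBC3, which encodes PUMA, a p53-induced BH3-only protein, was measured near the floor of the scale. Probe ILMN_1729645 read 7.65, 7.47 and 7.48 with miR-17-5p, 7.58, 7.56 and 7.54 with miR-17-5p-iso, 7.61, 7.60 and 7.58 with miR-27a, 7.87 and 7.78 with miR-23b, and 7.47 and 7.46 with miR-182-iso. The 2 miR-23b libraries lay above all others, by a mean of 0.29 over the unrelated pull-downs (SE 0.07, adjusted p = 0.0295). The 2 miR-182-iso libraries lay below all others, with a difference of -0.19 that did not pass (SE 0.07, adjusted p = 0.0527). The miR-23b call was lost without the miR-182-iso libraries (0.25, adjusted p = 0.0795), without replicate 2 of them alone (adjusted p = 0.0608) and without either miR-23b replicate.

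The 2 remaining BH3-only members, both on dim probes, did not pass the F test. BAD (ILMN_1738652), which neutralizes BCL-XL when dephosphorylated, ranged from 7.61 to 8.24 (F test, adjusted p = 0.238), with the 2 highest group means, 8.15 each, in miR-23b and miR-182-iso. BCL2L11 (ILMN_2359627) had the narrowest range of the members, 7.61 to 7.74 (adjusted p = 0.973). With miR-17-5p, for which it is a known target, BCL2L11 averaged 7.66 ± 0.05 (SD, n = 3), a difference of -0.02 from the unrelated pull-downs (95% interval -0.14 to 0.11, adjusted p = 0.901). On 1 dim probe a difference of that gene is compressed, so the interval holds for the normalized scale only.

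FADD (ILMN_1758658), the adaptor of the death receptors, was high in the same 4 libraries as BCL2L1. Its signal was 8.94, 9.02 and 9.08 with miR-17-5p, 8.87, 9.02 and 8.74 with miR-17-5p-iso, 9.42, 9.02 and 9.31 with miR-27a, 9.90 and 9.71 with miR-23b, and 10.19 and 9.74 with miR-182-iso. All 4 miR-23b and miR-182-iso libraries again lay above the other 9, a split for which the share of all probes was not counted. No step between neighbours passed: that between miR-23b and miR-27a was 0.56 (SE 0.16, adjusted p = 0.0617).

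FADD was lower than in the unrelated pull-downs with miR-17-5p (log2 difference -0.66, SE 0.12, adjusted p = 0.00894), and with miR-17-5p-iso (log2 difference -0.80, SE 0.12, adjusted p = 0.00312), where the 3 libraries lay below every comparator library, the nearest by less than the second decimal. It was higher with miR-182-iso by 0.63 (SE 0.13, adjusted p = 0.00654), a call lost without miR-182-iso replicate 1 (0.40, adjusted p = 0.0996). With miR-27a, for which FADD has been described as a target, it averaged 9.25 ± 0.21 (SD, n = 3) and the difference was -0.32 (95% interval -0.58 to -0.06, adjusted p = 0.0636). With miR-23b the difference of 0.42 (SE 0.13) did not pass (adjusted p = 0.0804), and it was 0.71 without the miR-182-iso libraries (adjusted p = 0.0156). The miR-17-5p difference and that of the isomiR kept their direction and passed without those libraries (-0.52, adjusted p = 0.0151, and -0.66, adjusted p = 0.00867). In limma pair contrasts FADD was lower with both strands than with miR-23b and miR-182-iso. Against miR-27a alone it did not pass (-0.24, adjusted p = 0.273, for miR-17-5p and -0.38, adjusted p = 0.0892, for the isomiR). As for BCL2L1, the comparisons share libraries.

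APAF1 (ILMN_1659463), the scaffold of the apoptosome, ranged from 8.96 to 9.97 and did not pass the F test (adjusted p = 0.228). Its group means were 9.66 ± 0.43 with miR-17-5p, 9.28 ± 0.25 with miR-17-5p-iso, 9.66 ± 0.37 with miR-27a, 9.02 ± 0.09 with miR-23b and 9.59 ± 0.29 with miR-182-iso (SD, n as for MCL1). The miR-23b libraries had the lowest mean, -0.55 from the unrelated pull-downs (95% interval -1.07 to -0.03, adjusted p = 0.166). With a within-group SD of 0.33, larger than that of 83.1% of all probes, this was one of the members with the widest spread between replicates.

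**Figure D2:**
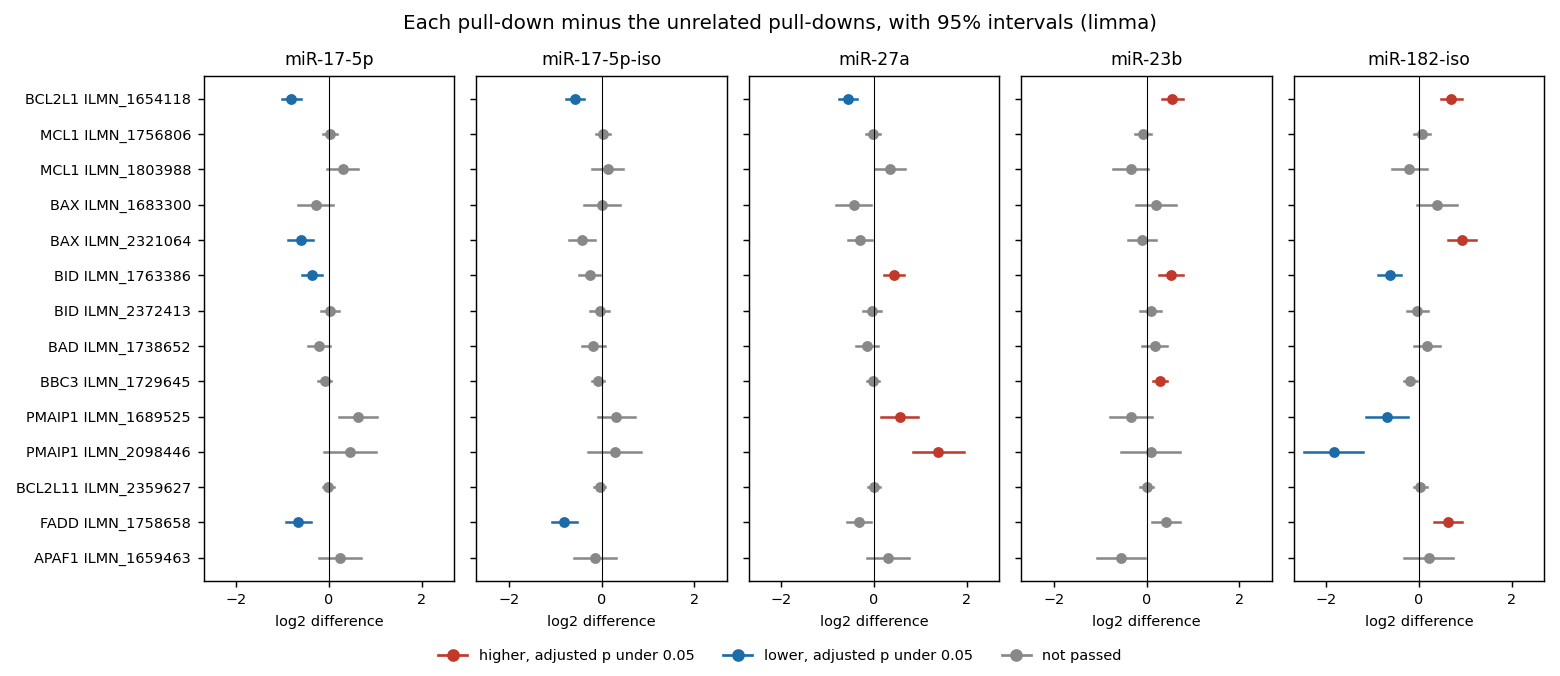
Log2 difference (horizontal axis) of each of the 14 member probes (rows) between a pull-down and the unrelated pull-downs, 1 panel per pull-down, with 95% intervals and colour for probes that passed at an adjusted p under 0.05. BCL2L1 passed in all 5 panels, and the widest difference was that of PMAIP1 with miR-182-iso (-1.84).

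Counted by pull-down, the members moved as follows. With miR-17-5p, 4 member probes fell (BCL2L1, BAX, BID and FADD) and 0 rose, where 4.51% of all probes fell and 5.34% rose (9.85% in either direction). With miR-17-5p-iso, 2 fell (BCL2L1 and FADD) and 0 rose, where 2.74% of all probes fell and 5.11% rose (7.85% together). FADD was the 1 member probe with all 3 of these libraries below the comparators, as were 1.71% of all probes. Thus, with all probes tested, 0 member probes were higher in the pull-down of the canonical miR-17-5p or its isomiR at this threshold. In one-sided limma tests for higher capture the counts were also 0 and 0. At an unadjusted p under 0.05, for which no share of all probes was counted, 1 was higher with miR-17-5p and 0 with miR-17-5p-iso. The 1 was the dimmer PMAIP1 probe, ILMN_1689525, with a log2 difference of 0.62 (SE 0.18, limma adjusted p = 0.0599), close to the threshold. With the filter on dim probes, miR-17-5p kept 4 calls although that of BID was lost, so another member probe passed there. The other member probes left by that filter, of MCL1 (ILMN_1803988), PMAIP1 and APAF1, all had positive differences. The added call was therefore for a higher signal with miR-17-5p.

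With miR-27a, 3 probes of BID and PMAIP1 rose and that of BCL2L1 fell, where 15.2% of all probes rose and 15.1% fell (30.4% together). With miR-23b, 3 rose (BCL2L1, BID and BBC3) and 0 fell, against 5.91% and 3% of all probes (8.91% together), and BBC3 was the 1 member with both libraries above all others (6.35% of all probes). With miR-182-iso, 3 rose (BCL2L1, BAX and FADD) and 3 fell (BID and both probes of PMAIP1), against 17% and 15.4% of all probes (32.4% together). Here BCL2L1 and BAX lay above every comparator library, as did 13.4% of all probes, and BBC3 and the brighter PMAIP1 probe lay below every one, as did 10.1%. Without the miR-182-iso libraries, the member probes called in either direction were 3 for miR-17-5p (16.4% of all probes), 3 for miR-17-5p-iso (11.2%), 2 for miR-27a (13.6%) and 2 for miR-23b (4.57%). The median difference over the 14 member probes was -0.06, -0.06, -0.01, 0.09 and 0.05 for the 5 pull-downs in the order above, and over all probes between -0.03 and -0.00.

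**Figure D3:**
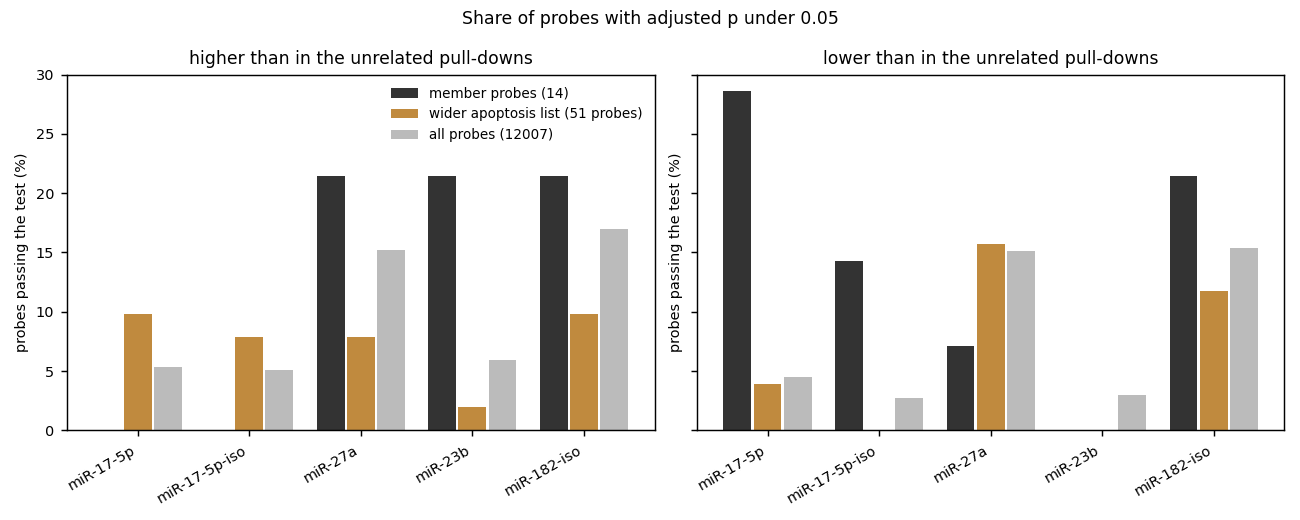
Share of probes (vertical axis, percent) that were higher (left panel) or lower (right panel) than in the unrelated pull-downs at an adjusted p under 0.05, for the 14 member probes, the 51 probes of a wider apoptosis list and all 12007 probes. With 14 probes, each called member is a step of several percent, so the bars rest on 0 to 4 probes each.

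The canonical miR-17-5p and its isomiR, which differ by the shift of 1 base, were also compared directly. Of the 14 member probes 0 differed (limma, 0 also at an unadjusted p under 0.05), where 1.11% of all probes did. The differences lay between -0.30 (BAX, ILMN_1683300) and 0.38 (APAF1, 95% interval -0.17 to 0.92). For BCL2L1 the difference was -0.24 (95% interval -0.47 to 0.0012, adjusted p = 0.378), and for FADD it was 0.14 (-0.17 to 0.45). For the brighter PMAIP1 probe the interval reached from -0.48 to 0.84, so that a difference of that size between the strands was not measured with precision.

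Between miR-27a and miR-23b, whose seeds begin alike, 1 member probe differed, where 7.06% of all probes did. Whether the seeds play a part was not tested. BCL2L1 was lower with miR-27a (log2 difference -0.84, SE 0.12, adjusted p = 0.00404). Another 6 member probes had an unadjusted p under 0.05 without passing. The share of all probes at that unadjusted threshold was not counted, so nothing is read from the 6. Over all 10 pairs of pull-downs, 29 of 140 member differences passed, against 16.3% over all probes, and 19 of the 29 were pairs with miR-182-iso. Over all probes, too, the highest shares by pair (38% and 24.6%) were in pairs with miR-182-iso. The pair of miR-27a and miR-182-iso held 6 of them, where 38% of all probes were called. By pair, miR-17-5p had 1 call against miR-27a (18.8% of all probes), 4 against miR-23b (13.3%) and 5 against miR-182-iso (15.1%). For miR-17-5p-iso there was 1 against miR-27a (18.4%), 3 against miR-23b (6.75%) and 4 against miR-182-iso (19.9%), and miR-23b had 4 against miR-182-iso (24.6%). BID was the 1 probe that set either miR-17-5p strand apart from miR-27a.

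**Figure D4:**
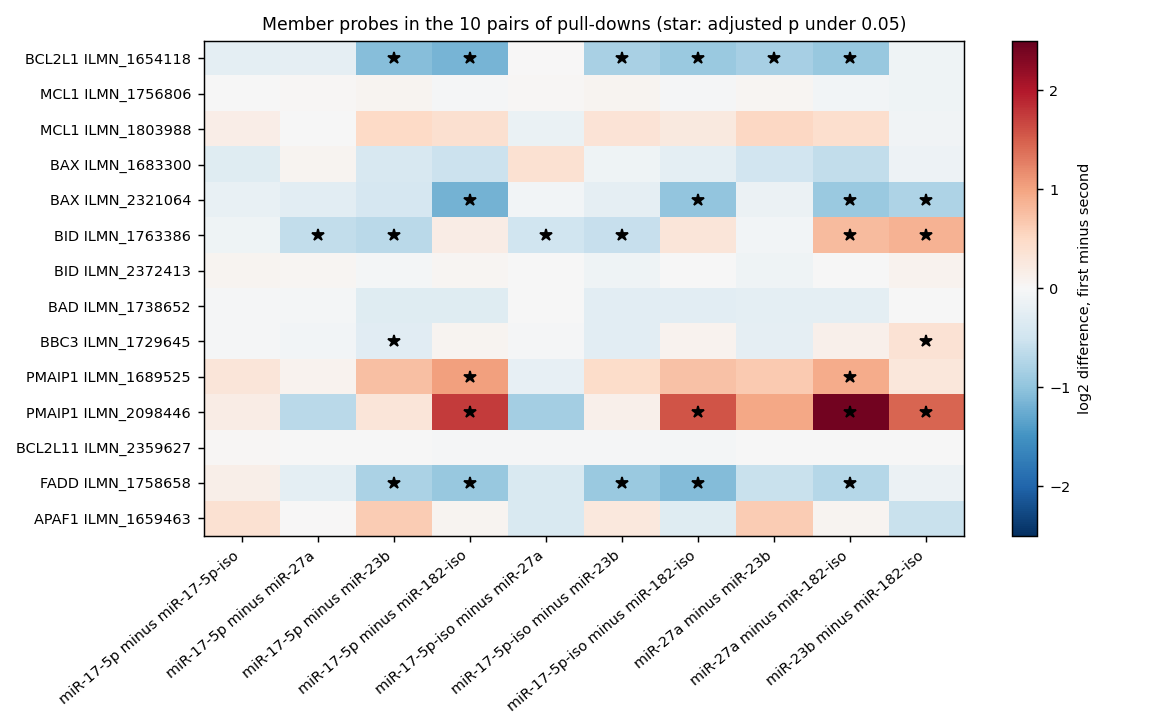
Log2 difference (colour, first pull-down minus second) of the 14 member probes (rows) in the 10 pairs of pull-downs (columns), with a star at an adjusted p under 0.05. The deepest colour is PMAIP1 in miR-27a minus miR-182-iso (2.42), the first column, miR-17-5p minus its isomiR, has 0 stars, and the MCL1, BAD, BCL2L11 and APAF1 rows have none.

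The rest of the pathway was described from a list of 54 further genes by role, of which 36 were present on 51 probes. With miR-17-5p, 5 of these probes rose and 2 fell (13.7% called, against 9.85% of all probes), the largest changes being VDAC1 (0.74, adjusted p = 0.00887), a channel of the outer mitochondrial membrane, and the death receptor TNFRSF21 (-0.84, adjusted p = 0.0179). With miR-17-5p-iso, 4 rose and 0 fell (7.84%, against 7.85%), led by CASP2 (0.86, adjusted p = 0.0213) and VDAC1 (0.75, adjusted p = 0.0079). With miR-27a, 4 rose and 8 fell (23.5%, against 30.4%), led by BNIP3 (0.71, adjusted p = 0.0467), a BH3-like mitochondrial protein, and DAXX (-0.68, adjusted p = 0.00327), a FAS-binding protein. With miR-23b only HTRA2, a mitochondrial protease that antagonizes inhibitors of apoptosis, rose on 1 of its probes (0.53, adjusted p = 0.0106), which is 1.96% of the list against 8.91% of all probes. With miR-182-iso, 5 rose and 6 fell (21.6%, against 32.4%), led by BNIP3L (-0.97, adjusted p = 0.00316) and the mitochondrial nuclease ENDOG (0.89, adjusted p = 0.000502). With all libraries in, the share called was below that of all probes in the miR-27a, miR-23b and miR-182-iso pull-downs. These shares rest on few probes of a chosen list. By role, the nuclease and substrate group (DFFA, DFFB, PARP1 and ACIN1, 6 probes) had 0 calls in the 5 comparisons (limma, 0 also at an unadjusted p under 0.05). The 12 probes of other BCL2 family genes had 3 higher and 1 lower with miR-27a, where 15.2% of all probes were higher and 15.1% lower. With miR-182-iso they had 2 higher and 2 lower, where 17% of all probes were higher and 15.4% lower, and with so few probes nothing is read from these counts. Without the miR-182-iso libraries, the wider list had 3 probes higher and 4 lower in miR-17-5p (13.7%, against 16.4% of all probes). It had 4 and 1 with the isomiR (9.8%, against 11.2%), 0 and 3 with miR-27a (5.88%, against 13.6%) and 1 and 0 with miR-23b (1.96%, against 4.57%). The genes named above for these 4 pull-downs stayed called, in the same direction, except BNIP3 (0.61, adjusted p = 0.112). The medians of the 51 differences lay between -0.03 and 0.04.

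For the 4 members with the widest range of group means, the probes most alike over the 13 libraries were named by Pearson correlation. This is a description, since the libraries fall into groups and the probes share arrays and normalization. PMAIP1 was closest to YY1 (r = 0.98), ATG14 (r = 0.97) and RNFT2 (r = 0.97). BAX was closest to SIVA1 (r = 0.96), USP21 (r = 0.94) and TMED3 (r = 0.94). BCL2L1 was closest to ANTKMT (r = 0.95), ECSIT (r = 0.95) and RCOR2 (r = 0.93). FADD was closest to CCNQ (r = 0.93), AURKA (r = 0.93) and SIRT5 (r = 0.92). Over the 11 libraries without miR-182-iso, the correlations of the same pairs were 0.91 to 0.93 for PMAIP1, 0.79 to 0.83 for BAX, 0.89 to 0.93 for BCL2L1 and 0.86 to 0.96 for FADD.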

How the data were processed

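The authors adjusted background, applied a variance-stabilizing transformation and robust spline normalization (lumi 2.2.1 per the submitters' processing notes), and deposited log2-scale values of 12007 probes detected in all mock-transfected controls. Array versions 3 and 4 were both in use, and the version of each library is not given here. A table of non-normalized signals in 26 columns, whose names match no sample, was not used. Of the probes, 10444 had 1 gene symbol, 1 had several and 1562 had none. Symbols of 10442 probes were matched by gene ID to the RefSeq gene table (GRCh38.p14).

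All tests came from 1 limma model of 5 groups (version 3.58.1 in R 4.3.3), checked on simulated data. Each pull-down was set against the equally weighted mean of the unrelated miRNA families (7 comparator libraries in the case of either miR-17-5p strand, 10 for miR-27a, and 11 each for miR-182-iso and miR-23b), with miR-17-5p and its isomiR as 1 family left out of each other's comparator. Tests were two-sided, with Benjamini-Hochberg adjustment over all probes. No source says that these libraries came from separate cultures, so p-values measure the spread between libraries, which may be technical. No pair of libraries was identical. Each member probe that passed a test is given by library and the others by ranges. Of the wider list, at most the 2 largest called differences per comparison are named. Members and lists were chosen with earlier results of these data known.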

Additional observations from a re-analysis of the deposited data

How the results depend on the processing

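The tally of alternatives covers only member probes called in a comparison with all libraries or without both miR-182-iso libraries. Of their values, 389 kept their direction and side of the threshold, 50 no longer passed, 5 newly passed and 0 changed sign. Other member probes were left out of this tally, and some of them newly passed. With the replicate number as a block, for example, miR-27a had 6 calls, against 4 in the main test. Shares of all probes under the alternatives are given only above, for leaving out both miR-182-iso libraries. A changed count under the others therefore need not be particular to the members. With a threshold of 0.01, the member probes called numbered 2 with miR-17-5p, 2 with miR-27a and 0 with miR-23b, and 19 pair differences passed. One-sided tests for higher capture called 0 for miR-17-5p, 0 for miR-17-5p-iso and 3 for miR-182-iso, which by construction leave out lower probes. Without both miR-182-iso libraries, 2 were called for miR-27a, 3 passed the F test and 10 pair differences passed. FADD with miR-23b newly passed against all 4 other pull-downs (0.53, adjusted p = 0.0361). Leaving out 1 library gave 2 to 4 calls for miR-17-5p (2 without its replicate 3), 2 to 3 for miR-17-5p-iso, 3 to 5 for miR-27a, 0 to 4 for miR-23b (0 without either of its replicates), 4 to 7 for miR-182-iso, 5 to 7 in the F test and 22 to 33 pair differences. Where 1 library of miR-23b or miR-182-iso was left, it was assumed to vary like the other groups. Quantile normalization, centring on the median, array weights and a filter on dim probes moved no member count by over 1.5 times, but all of these except array weights ended the BID call for miR-17-5p. The wider list without the miR-182-iso libraries, an alternative chosen after seeing the data, had 3 calls for miR-27a in place of 12. Groups share replicate numbers. The deviations of same-numbered libraries correlated between -0.33 and 0.63 (23 pairs, median 0.14), against a median of -0.08 for pairs of other numbers. Of the 13 libraries, 10 correlated best with one of their own number. With the replicate number as a block, the calls were 3, 2, 6, 3 and 8 for the 5 pull-downs in the order above, 7 in the F test and 30 in pairs. The cause of these changes was not tested.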
